A study of Mus musculus with 2 samples.

Results

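The miR-26 hairpins are the 3 precursor microRNA genes Mir26b, Mir26a-1 and Mir26a-2. They were taken by name from the 2202 microRNA genes counted in mouse adrenal gland. All 3 had at least 10 counts in both libraries, as did 352 genes in all. Small RNA was sequenced from adrenal gland tissue of male B6CASTF1/J mice aged 25 days, an F1 cross between C57BL/6J and CAST/EiJ, with 2 biological replicates in 1 group and no treatment named. The labels list a single donor entry for both replicates although the animals carry different numbers. Every SD and p-value therefore measures only how far these libraries lie apart, and part of that may be technical. In this bulk tissue, fewer cells of a type and less RNA per cell cannot be told apart.

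A microRNA hairpin is cut from its transcript by Drosha and then by Dicer, which leaves a duplex of a 5p and a 3p arm. One arm is loaded into an Argonaute protein and directs it to messenger RNAs that pair with the seed, bases 2 to 8 of the arm. The miR-26 hairpins are known for lying in genes of the Ctdsp family, which encode small phosphatases of the RNA polymerase II C-terminal domain, and for being made together with their hosts. The 5p arm is the one known to act, in the cell cycle, in neuronal differentiation and in metabolism.

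The mature arms are shown first, since they set which reads can be assigned to which hairpin, 5′ to 3′, with the seed in capitals. They come from RefSeq (GRCm38.p6), where all 3 hairpins were found at the spans that GENCODE M21 gives on mm10.
miR-26a-5p, from both Mir26a-1 and Mir26a-2: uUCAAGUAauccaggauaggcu
miR-26b-5p: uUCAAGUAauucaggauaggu
miR-26a-1-3p: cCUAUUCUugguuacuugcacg
miR-26a-2-3p: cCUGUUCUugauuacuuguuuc
miR-26b-3p: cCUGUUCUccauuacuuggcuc
The 5p arms share the seed UCAAGUA, which no mature arm of another hairpin in the RefSeq table has. Counting from 1 at the 5′ end, miR-26a-5p and miR-26b-5p differ at C11U and C21U over 21 compared positions, and miR-26a-5p is 1 base longer. The 3p arms differ more. Those of Mir26a-1 and Mir26a-2 have 6 differences over 22 positions, and 1 of them, A4G, is in the seed. The 3p arms of Mir26a-2 and Mir26b thus share the seed CUGUUCU, which 2 other hairpins in the table, Mir7039 and Mir6932, also carry, with 1 and 3 counts over both libraries. The seed CUAUUCU of miR-26a-1-3p stood in no other hairpin.

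The whole hairpins, with both mature arms in capitals, show where the copies part.
Mir26b: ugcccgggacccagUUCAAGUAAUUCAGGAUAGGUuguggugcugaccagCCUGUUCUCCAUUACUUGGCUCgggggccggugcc
Mir26a-1: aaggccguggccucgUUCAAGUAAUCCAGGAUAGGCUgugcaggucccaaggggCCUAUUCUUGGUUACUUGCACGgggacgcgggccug
Mir26a-2: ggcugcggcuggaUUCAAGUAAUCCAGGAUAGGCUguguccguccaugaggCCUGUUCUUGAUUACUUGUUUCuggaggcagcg
Mir26a-1 and Mir26a-2 share 1 run of 25 bases, which starts at the first base of the 5p arm and ends 3 bases past it. Mir26b shares at most 11 bases in a row with either. Of the 18-base windows inside the 5p arm, 0 of 5 are particular to Mir26a-1 and 0 of 5 to Mir26a-2 among the 1005 hairpins of the table. All 5 windows of each 3p arm are. At Mir26b all 4 windows of the 5p arm and all 5 of the 3p arm occur in no other hairpin of the table. Only exact matches were sought, and the rest of the genome was not searched. Whether reads with mismatches passed between miR-26a-5p and miR-26b-5p was not tested. Reads mapped to several places were left out of the gene counts. A read inside the shared run of 25 bases, which holds miR-26a-5p, therefore matches both Mir26a genes equally. The counts of these genes rest on reads that reach beyond that run, into the rest of the loop, the 3p arm or the flanks. The tables do not split counts by arm.

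Each hairpin lay on the strand of its host and in the same place within it. Mir26b (ENSMUSG00000065468.1; chromosome 1, 74394310 to 74394394, plus strand, mm10) lies in intron 4 of 6 of Ctdsp1, counted in the principal transcript. Mir26a-1 (ENSMUSG00000065513.1; chromosome 9, 119031796 to 119031885, plus strand) lies in intron 5 of 7 of Ctdspl. Mir26a-2 (ENSMUSG00000065430.1; chromosome 10, 126995530 to 126995613, plus strand) lies in intron 5 of 7 of Ctdsp2. In all 3 hosts 2 introns follow, the exon before the hairpin is 57 bases long and the exon after it is 93 bases long. The introns differ in length, with 564 bases in Ctdsp1, 3283 in Ctdspl and 1946 in Ctdsp2. The last base of Mir26a-2 is also the first base of an annotated exon in 2 of the 4 Ctdsp2 transcripts, so only its other bases are intronic in every transcript. The related gene Ctdspl2 on chromosome 2 holds 0 annotated microRNA genes.

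**Figure D1:**
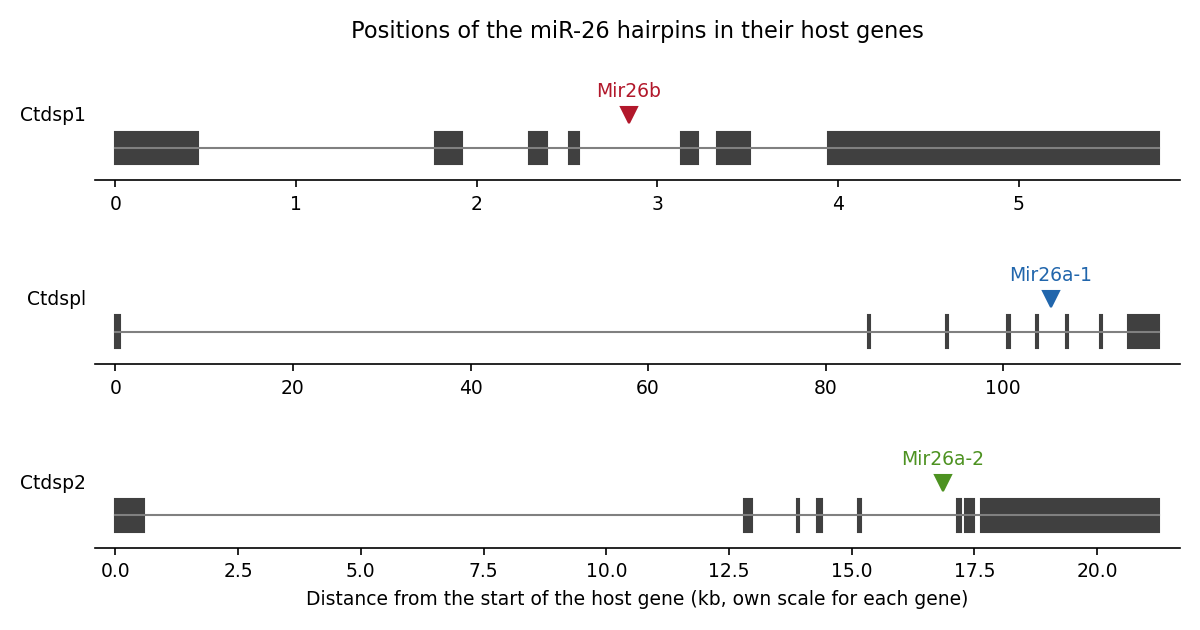
Exons (dark boxes) and introns (line) of the 3 host genes, by distance in kb from the host's start and on a separate scale for each gene, with a triangle at the hairpin. Mir26b sits in intron 4 of Ctdsp1, Mir26a-1 in intron 5 of Ctdspl and Mir26a-2 in intron 5 of Ctdsp2, each with 2 introns after it.

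Neither Mir26b nor Mir26a-1 has another annotated microRNA gene in its host, and the nearest hairpins are 187690 and 1032366 bases away. Ctdsp2 also spans Mir546, 2827 bases past Mir26a-2 on the same strand, which had 1 count in replicate 1 and 0 in replicate 2.

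The libraries stand apart in one respect that touches every level below. Replicate 1 had 3588361 sense counts in microRNA genes and replicate 2 had 4541373, and a count of 0 would allow levels of up to 0.836 and 0.661 CPM, counts per 1000000 sense counts of all microRNA genes. Mir122, the dominant hepatocyte microRNA, took 0.0892% of the sense counts in replicate 1 and 19.8% in replicate 2, so results are also given with Mir122 left out of the totals. No microRNA was taken to define adrenal cortex. The 4 neuroendocrine hairpins chosen to mark chromaffin cells (Mir375, Mir7-1, Mir7-2 and Mir7b) were all detected and summed to 39476 and 33420 CPM.

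By assigned reads, Mir26b was among the most abundant microRNA genes of the adrenal gland, while the Mir26a genes stood far lower. Reads mapped to several places count for no gene, so all ranks here hold among assigned reads only. Levels in CPM are not divided by hairpin length, which is 84 to 90 bases in the 3 genes. Mir26b had 140876 counts in replicate 1 and 107339 in replicate 2, or 39259 CPM (39058 to 39461, exact 95% interval) and 23636 CPM (23496 to 23776). It ranked 10 in replicate 1 and 12 in replicate 2 among the 2202 genes. Its mean was 31447 CPM ± 11047 (SD, n = 2). Among 136 detected hairpins lying in introns and in no exon it ranked 4, and their median was 121 CPM.

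Mir26a-1 had 252 counts in replicate 1 and 26 in replicate 2. That is 70.2 CPM (61.8 to 79.5) against 5.73 CPM (3.74 to 8.39), or ranks 193 and 321. Its mean of 38.0 CPM had an SD of 45.6, larger than the mean itself.

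Mir26a-2 had 152 counts in replicate 1 and 107 in replicate 2. That is 42.4 CPM (35.9 to 49.7) and 23.6 CPM (19.3 to 28.5), or ranks 217 and 254, with a mean of 33.0 CPM ± 13.3. Both Mir26a genes were above the limit of a count of 0 in both libraries, and both were higher in replicate 1. The reads carry no molecular identifiers and may repeat one molecule, so intervals and limits express counting error alone.

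**Figure D2:**
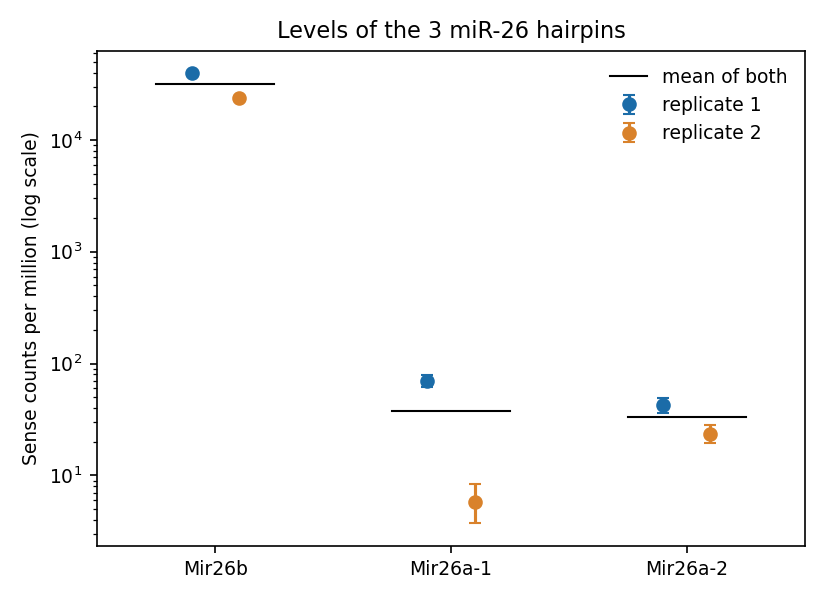
Sense CPM (log axis) of the 3 hairpins in replicate 1 and replicate 2, with exact 95% counting intervals (narrower than the points for Mir26b) and a line at the mean. Mir26b is at 39259 and 23636, and Mir26a-1 falls below Mir26a-2 in replicate 2 only.

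In order of mean level, Mir26b came first, followed by Mir26a-1 and Mir26a-2, but the means of the last pair did not differ beyond their spread. The neighbours of Mir26b in the order over all genes were Mir23a above it, at 35072 CPM ± 11492, and Mir375 below it, at 31192 CPM ± 3095. Neither mean differed from that of Mir26b by more than its SD, but the genes were measured in the same libraries. Mir23a stood above Mir26b in each library, at 43199 CPM in replicate 1 and 26946 CPM in replicate 2. Mir375 stood below Mir26b in replicate 1, at 33380 CPM, and above it in replicate 2, at 29004 CPM.

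Together the 3 hairpins held 3.94% of the sense counts in replicate 1 and 2.37% in replicate 2, a mean of 3.15% ± 1.11 (SD, n = 2). Mir26b supplied 99.7% and 99.9% of this. The sum leaves out reads inside miR-26a-5p, so it is not a level of the family. Reads mapped to several places numbered 2734873 in replicate 1 and 2781545 in replicate 2, or 19.4 and 25.9 times the counts of Mir26b. The tables do not split these reads by gene, and how many were miR-26a-5p was not measured. Antisense counts were 0 at all 3 hairpins in both libraries.

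Ratios of counts within a library do not depend on its total. Mir26b exceeded Mir26a-2 by 927 times in replicate 1 (791 to 1094, exact 95% interval) and by 1003 times in replicate 2 (830 to 1224). These overlap, and the ratio changed 1.08-fold between the libraries (0.840 to 1.40). No change in the proportion of Mir26b to Mir26a-2 was detectable beyond counting error. Per base of the whole hairpin these ratios were 916 and 991. Reads inside miR-26a-5p count for neither Mir26a gene, while miR-26b-5p had no exact match in another hairpin of the RefSeq table. The ratios with Mir26b, per base or not, are therefore of assigned reads and not of abundance.

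Mir26b exceeded Mir26a-1 by 559 times in replicate 1 (494 to 635) and by 4128 times in replicate 2 (2817 to 6320). The ratio was 7.38-fold larger in replicate 2 (4.92 to 11.5), and the intervals do not overlap.

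The order of the Mir26a genes turned between the libraries. Mir26a-1 had 1.66 times the counts of Mir26a-2 in replicate 1 (1.35 to 2.04) and 0.243 times in replicate 2 (0.152 to 0.376). Both intervals leave out equal counts, on opposite sides. With 2 libraries the mean ratio was 0.950 ± 1.00 (SD, n = 2), so no order of Mir26a-1 and Mir26a-2 in adrenal gland can be given. Both counts also leave out reads inside miR-26a-5p, which both genes share. More libraries counted in this way would therefore still not order the output of the genes.

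**Figure D3:**
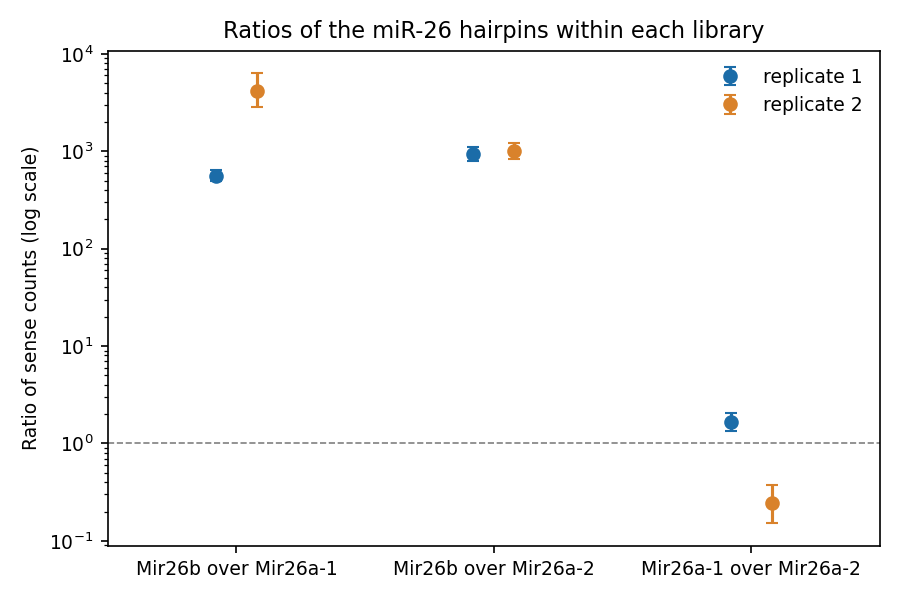
Ratio of sense counts (log axis) for each pair of hairpins in each library, with exact 95% counting intervals and a dashed line at equal counts. The ratio of Mir26b to Mir26a-2 is 927 and 1003, while both ratios with Mir26a-1 differ between the libraries.

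The libraries were then compared gene by gene, with an exact two-sided binomial test of the sense counts against the library totals, adjusted by Benjamini-Hochberg over the 352 detected genes. The test compares these libraries, not conditions, and weighs differences against counting error alone. It called 67.0% of detected genes in one direction or the other, and 36.6% as lower in replicate 2. All 3 miR-26 hairpins were called lower in replicate 2. With so large a share of genes called, the calls themselves set the hairpins little apart. The sizes differed more, and the median log2 ratio of the 3 was -0.82 on the log2(CPM + 1) scale, against -0.04 over the 352 genes.

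Mir26b was 1.66-fold higher in replicate 1 (1.65 to 1.67), and 44 of the 352 genes had a lower log2 ratio than its -0.73. Its adjusted p was too small for double-precision arithmetic to hold. Mir26a-2 was 1.80-fold higher in replicate 1 (1.39 to 2.32), with a log2 ratio of -0.82 and an adjusted binomial p of 7.3e-06 by the exact test. With Mir122 out of the totals the folds were 1.33 (1.32 to 1.34) for Mir26b and 1.44 (1.12 to 1.87) for Mir26a-2. All 3 hairpins were still called lower, against 21.3% of detected genes.

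Mir26a-1 was 12.3-fold higher in replicate 1 (8.18 to 19.1), or 9.85-fold (6.57 to 15.4) with Mir122 out of the totals. Its log2 ratio of -3.40 (adjusted p 1.25e-59, exact binomial test) was the lowest of the 352 detected genes, and the next, Mir380, was at -2.44. It stayed the lowest with pseudocounts of 0.1 and 10 CPM and with Mir122 out of the totals. Of the 69 other detected genes with a mean within 2-fold of its own, 59 differed by less than 2-fold between the libraries.

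**Figure D4:**
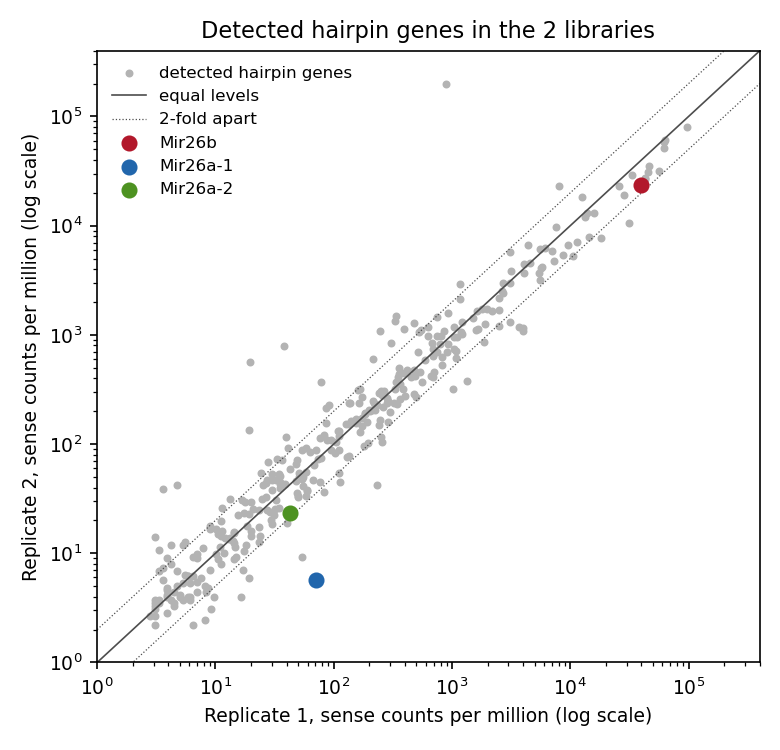
Sense CPM in replicate 1 (x) and replicate 2 (y) of the 352 detected genes, on log axes, with the line of equal levels and dotted lines 2-fold apart. Mir26b and Mir26a-2 lie between the equal line and the lower dotted line, and Mir26a-1, at 70.2 and 5.73, lies far below it.

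Markers of other tissues and of cell types differed between the libraries to unlike degrees. The 7 liver hairpins, 4 of them detected, summed to 1576 CPM in replicate 1 and 199980 CPM in replicate 2. The 6 skeletal muscle hairpins summed to 993 CPM and 0.661 CPM, of which Mir206 alone made up 987 and 0.661 CPM, with Mir133a-2 and Mir133b at 0 in replicate 1 and 5 of the 6 at 0 in replicate 2. The 4 leukocyte hairpins summed to 2280 and 1077 CPM, the smooth muscle pair to 49552 and 31949 CPM, and the endothelial Mir126a stood at 62826 and 60799 CPM. The 4 kidney hairpins, 3 of which are also on the liver list, summed to 106 and 1399 CPM, while Mir204, the 1 not on the liver list, was lower in replicate 2, at 48.5 and 35.7 CPM. The erythroid pair summed to 1487 and 1248 CPM. The part of any of these in the lower miR-26 levels of replicate 2 was not tested.

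The genes most like each hairpin were found as the 3 nearest by distance in log2(CPM + 1) over the 2 libraries. For Mir26b they were Mir23a, Mir23b and Mir375, at distances of 0.23, 0.24 and 0.38. Mir23a had 43199 and 26946 CPM. A lower level in replicate 2 follows from its having been picked as near to Mir26b over the same libraries. For Mir26a-2 they were Mir669l, Mir677 and Mir760, at 0.31, 0.33 and 0.40. Mir26a-1 had a single near gene, Gm49347, at 0.71, with 195 and 42 counts. The next, Mir669l and Mir669e, were at 1.75 and 1.82. With 2 libraries these distances describe level more than pattern.

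Other hairpins that lie in introns of paralogous host genes gave a frame for these levels. Of 13 listed, 9 were detected, with means from 5.05 to 2578 CPM, all below Mir26b. The closest parallel is the set in the pantothenate kinase genes, enzymes that open coenzyme A synthesis. Mir103-1 (in Pank3) and Mir103-2 (in Pank2) share an identical mature arm, and Mir107 (in Pank1) has no arm identical to another over its full length. Arms were compared here as whole sequences only. Shared 18-base windows were sought for the miR-26 hairpins alone, so reads that Mir107 may lose to shorter shared stretches were not measured. Mir107 stood at 2578 CPM ± 74.0, Mir103-1 at 5.05 CPM ± 1.53 and Mir103-2 at 24.5 CPM ± 6.72. Mir107 exceeded Mir103-1 by 429 and 637 times and Mir103-2 by 133 and 86.2 times in replicates 1 and 2. A hairpin with no identical whole arm, far above a pair of copies with a shared arm, was thus seen in both sets. Reads inside a shared arm match both copies and were left out of their counts, so the counting itself lowers the copies. How much of the contrast this makes was not measured, and these ratios are not ratios of abundance.

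Of the list, 5 of the 9 detected hairpins were called lower and 2 higher in replicate 2 (exact binomial test, adjusted over all 352 genes), where 36.6% and 30.4% of all detected genes were, and their median log2 ratio was -0.43. The 6 hairpins with a shared arm, Mir103-1, Mir103-2, Mir128-1, Mir128-2, Mir218-1 and Mir218-2, had means between 5.05 and 60.4 CPM, a range that holds both Mir26a genes. Among the 7 with no shared arm were Mir107 and also Mir211, Mir208a, Mir208b and Mir499, the 4 below the count minimum, so a hairpin with no shared arm was not always abundant.

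**Figure D5:**
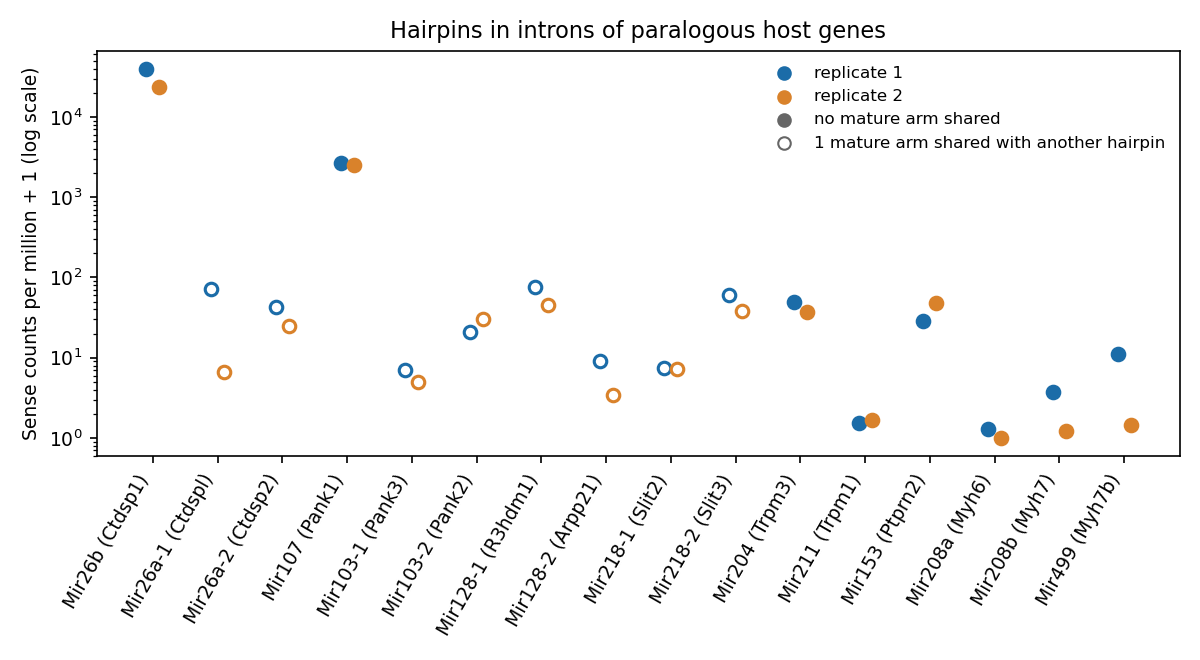
Sense CPM plus 1 (log axis) in each library for the 3 miR-26 hairpins and 13 others in introns of paralogous genes, with the host in brackets. Open points mark hairpins that share a whole mature arm with another hairpin, all of them at 75.8 CPM or below. Filled points mark those that share no whole arm, led by Mir26b and Mir107.

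The same contrast, with the same limit on the counts of hairpins that share an arm, was looked for over all hairpins. RefSeq entries matched 968 of the 2202 counted genes. Of the matched hairpins with both arms listed, 56 had 1 arm identical to an arm of another hairpin, and 42 of these were detected. Their median was 36.6 CPM over the detected ones and 18.7 CPM over all 56. Mir26a-1 ranked 21 and Mir26a-2 ranked 25 of the 56, and the highest was Mirlet7f-2 at 4274 CPM. Another 551 hairpins shared no whole arm, and 207 of these were detected. Their median was 185 CPM over the detected ones but 0.690 CPM over all 551, so the order of the medians turns with the count minimum. A further 19 hairpins shared both arms, and the 2 detected had a median of 564 CPM. Mir26b ranked 6 of the 551, against 11 by mean level over all 2202 genes. The 328 matched hairpins with 1 arm listed, 50 of them detected, stand outside these kinds. Mir126a, at 61812 CPM, is among those 328. Mir26a-2, at 42.4 and 23.6 CPM, lay on either side of the detected median of its kind. Mir26a-1 lay above it in replicate 1, at 70.2 CPM, and far below it in replicate 2, at 5.73 CPM, so its rank by mean describes neither library. Between the libraries, 5 of the 42 detected hairpins with 1 shared arm (11.9%), Mir26a-1 among them, differed by more than 2-fold, as did 35 of the 207 with none (16.9%).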

How the data were processed

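MicroRNA sequencing of adrenal gland was analysed from 2 libraries. The authors deposited raw counts of reads per microRNA gene, aligned to mm10 with GENCODE M21 annotation, per the file headers of the accompanying text. For the aligner and the trimming, the sources used here give nothing. Each table has 3 count columns (either strand, sense and antisense, as their values show) and 4 summary lines, which were left out of totals. Unmapped reads were 21.3% and 22.8% of input in replicates 1 and 2, reads mapped to several places 31.6% and 27.0%, and reads outside microRNA genes 5.73% and 5.99%. Sense counts were used per 1000000 assigned. All 2202 identifiers were found in GENCODE M21. Host transcripts were the longest with the first APPRIS rank. Detection, at 10 or more counts in each library, was required for the test, with a threshold of 0.05 and log2 ratios at a pseudocount of 1 CPM. Intervals are Clopper-Pearson at 95%, and those of a change in ratio are exact conditional odds ratio intervals. The binomial test was run on simulated data that held counting error alone, so its behaviour under wider spread between libraries was not tested. Named genes were the 3 hairpins, the 3 nearest genes to each and a list of 13 hairpins in introns of paralogous genes. Hairpins sharing a seed and markers of tissues and cell types were also named. Mir380, Mir546, Mir206 and Mirlet7f-2 were named after their values were seen. The members and lists were chosen with earlier results of these data known. Alternatives were totals leaving out Mir122, all input reads as totals, edgeR 4.0.16 TMM sizes, DESeq2 1.42.0 size factors, the either-strand column, other count minimums and pseudocounts, and each library left out. Python 3.11.15, scipy 1.17.1, pandas 2.3.3, matplotlib 3.10.9 and R 4.3.3 were used.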

Additional observations from a re-analysis of the deposited data

How the results depend on the processing

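The 3 hairpins stayed lower in replicate 2, and past the threshold wherever tested, under every alternative total, strand column, pseudocount and count minimum run. A minimum of 50 counts in both libraries left Mir26a-1 untested and 2 hairpins called. Levels moved beyond the SD with totals of all input reads, a larger denominator, to 13346 for Mir26b and 14.0 for Mir26a-2 per 1000000 input reads. Without replicate 1 or 2, the level ran from 23636 to 39259 CPM for Mir26b, 5.73 to 70.2 for Mir26a-1 and 23.6 to 42.4 for Mir26a-2. The log2 ratio of Mir26a-1 ran from -3.59 at a pseudocount of 0.1 CPM to -2.35 at 10 CPM. With Mir122 left out of the totals, the median log2 ratio over all detected genes rose by 0.30. It also changed the split of calls from 129 lower and 107 higher in replicate 2 to 75 lower and 176 higher. Requiring 1 count in either library raised the genes tested from 352 to 749 and the genes called from 236 to 245. The library comparison has no value with a library left out. No paired analysis was possible because there is 1 group. The 26 counts of Mir26a-1 in replicate 2 widen the intervals of its ratios, and the difference between the libraries is larger than those intervals.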

Other observations

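Of the 193 genes with at least as many counts in replicate 1 as Mir26a-1, the only one with a lower log2 ratio was Mir206, a skeletal muscle hairpin that the count minimum left out of the test. This set was chosen after the values were seen. The cardiac and slow muscle myosin genes Myh7 and Myh7b host Mir208b and Mir499, which had 10 and 36 counts in replicate 1 and 1 and 2 counts in replicate 2.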
